A study of Mus musculus with 57 samples.

Results

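Whole livers of mice on 1 diet fell into 2 sets by their level of Col1a1, which encodes a chain of type I collagen, and the RNA of 18 livers with a high level is described here against that of 4 livers with a low level. A liver was placed in the high-collagen set where its Col1a1 count was 100 or more CPM (counts per 1000000 counts of its library, with 1 transcript kept per gene symbol), and in the low-collagen set where it was under 100. The rule took in all 22 whole liver libraries of a series of 57 mouse RNA-seq libraries, which otherwise holds sorted liver macrophages and blood monocytes. Every one of these mice had eaten CDAHFD, a choline-deficient, amino acid-defined, high-fat diet that gives fatty liver inflammation (NASH) and fibrosis, for 4 weeks. The strain label of each liver is Clec4f-cre DTR pos or Clec4f-cre DTR neg, where DTR is a receptor for diphtheria toxin and Clec4f, whose name the Cre carries, is a gene of Kupffer cells, which are macrophages that reside in the liver. The high-collagen set held 9 DTR positive and 9 DTR negative livers, and the low-collagen set held 3 DTR positive livers (replicates 1, 2 and 7) and 1 DTR negative liver (replicate 2). The labels used here do not say whether toxin was given, and they do not say that replicates are separate animals, so each p-value measures only how far these libraries spread, which may be technical. No liver without the diet is among the 22, and the labels give no fibrosis score, so both sets are diet-fed livers that differ in a measured RNA level.

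By the level that the rule used, Col1a1 ran from 141 to 411 CPM in the 18 high-collagen livers, with a median of 257 CPM. It was at 50.9, 40.7, 53.8 and 39.1 CPM in the low-collagen livers, DTR positive replicates 1, 2 and 7 and DTR negative replicate 2. The livers just inside the threshold were DTR negative replicates 5 and 6, with 141 and 160.0 CPM, and those just outside it were DTR positive replicates 7 and 1. Since the sets were taken from these same libraries by a measured value, every difference between them is given as a description, without a test, and Col1a1 itself (NM_007742, chromosome 11, 94936224 to 94953042, mm10) is no finding. Tests are given for what the rule did not use, which is the variation of Col1a1 among the high-collagen livers, the DTR label, and sorted Kupffer cells of another diet course in the same series.

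Fibrosis is the build-up of extracellular matrix, chiefly fibrillar collagens. In the liver the matrix is made mainly by hepatic stellate cells, vitamin A-storing cells of the sinusoid wall that turn into myofibroblasts when TGF-beta and PDGF activate them. Enzymes fold, trim and cross-link the collagen chains, and metalloproteinases, held in check by inhibitors, degrade them. In fatty liver disease, macrophages that take up lipid and dead cells carry Trem2, a lipid-sensing receptor, and Gpnmb, a glycoprotein of lysosomes and the cell surface, and these are called lipid-associated macrophages. Hepatocytes make most plasma proteins and the bile acids, and they hold most of the cytochrome P450 enzymes that metabolise drugs.

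Genes of lipid-associated macrophages stood far apart between the sets, together with the collagens. The levels given here are CPM scaled with TMM, a normalization by the bulk of genes, as the lowest, median and highest of the 18 high-collagen livers and as each low-collagen liver in the order DTR positive replicates 1, 2 and 7 and DTR negative replicate 2. A log2 difference is that of the median log2(CPM + 0.5), and folds are on the same scale, which understates the difference of low genes. Gpnmb (NM_053110, chromosome 6, 49036518 to 49058182, mm10) measured 164, 526 and 724 CPM in high-collagen livers, against 22.2, 8.03, 17.9 and 16.1 CPM in low-collagen livers, a log2 difference of 4.91, or 30.1-fold. Trem2 (NM_001272078, chromosome 17, 48346401 to 48352276) measured 19.1, 50.1 and 62.4 CPM in high-collagen livers, against 3.75, 2.75, 4.56 and 5.08 CPM in low-collagen livers, a log2 difference of 3.45, or 10.9-fold. In both genes the lowest high-collagen liver had several times the level of the highest low-collagen liver. Col1a2, the other chain of type I collagen (chromosome 6, 4505618 to 4541543), measured 104, 162 and 221 CPM in high-collagen livers, against 56.0, 43.5, 53.1 and 35.3 CPM in low-collagen livers, a log2 difference of 1.74, and the sets did not overlap. The promoters of these 3 genes are shown because they are the macrophage and matrix genes that the results turn on. They are RefSeq sequences of GRCm38.p6, each on the plus strand, from 250 bases before to 30 bases after the annotated start, at chr6:49036268-49036547 for Gpnmb, chr17:48346151-48346430 for Trem2 and chr6:4505368-4505647 for Col1a2. Capitals mark matches, on either strand, to the letters TGANTCA of an AP-1 site, the letters CCAAT of the box of that name, the letters GAGGAA of an ETS core with its PU.1 flank, or the letters GGGCGG of a GC box.
Gpnmb: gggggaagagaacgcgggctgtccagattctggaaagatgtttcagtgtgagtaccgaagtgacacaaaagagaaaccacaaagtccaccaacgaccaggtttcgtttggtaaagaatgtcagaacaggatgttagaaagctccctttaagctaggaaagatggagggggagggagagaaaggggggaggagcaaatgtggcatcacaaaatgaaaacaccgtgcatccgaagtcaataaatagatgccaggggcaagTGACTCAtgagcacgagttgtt
Trem2: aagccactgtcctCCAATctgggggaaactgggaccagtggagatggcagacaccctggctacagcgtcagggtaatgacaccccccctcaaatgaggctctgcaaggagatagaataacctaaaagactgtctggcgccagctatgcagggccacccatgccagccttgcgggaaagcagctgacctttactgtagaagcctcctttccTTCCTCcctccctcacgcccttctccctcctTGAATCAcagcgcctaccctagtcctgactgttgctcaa
Col1a2: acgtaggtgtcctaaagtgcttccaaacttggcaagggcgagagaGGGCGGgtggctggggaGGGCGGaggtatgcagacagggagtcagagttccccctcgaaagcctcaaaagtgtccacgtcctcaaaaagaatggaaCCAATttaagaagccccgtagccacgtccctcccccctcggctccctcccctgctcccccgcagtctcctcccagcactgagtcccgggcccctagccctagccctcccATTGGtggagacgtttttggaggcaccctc
The AP-1 letters began at base 9 after the start in Gpnmb (TGACTCA) and 9 bases before the start in Trem2 (TGAATCA). Col1a2 had none in this window but held 2 GC boxes and 2 CCAAT matches, which lay on opposite strands. Of 32851 RefSeq mouse promoters of 300 bases, 7.81% hold TGANTCA, 37.4% CCAAT, 28.3% GAGGAA and 35.7% GGGCGG, on either strand. In the 12627 promoters of genes that passed the filter on low counts, these shares are 5.43%, 37.6%, 26.5% and 60.5%. Promoters were matched for 511 of the 665 genes that were at least 2-fold higher in every high-collagen liver and for 32 of the 44 that were lower. Since the match was not complete for either, no count over these genes is given. A match describes letters only, and no binding was measured in these files.

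**Figure D1:**
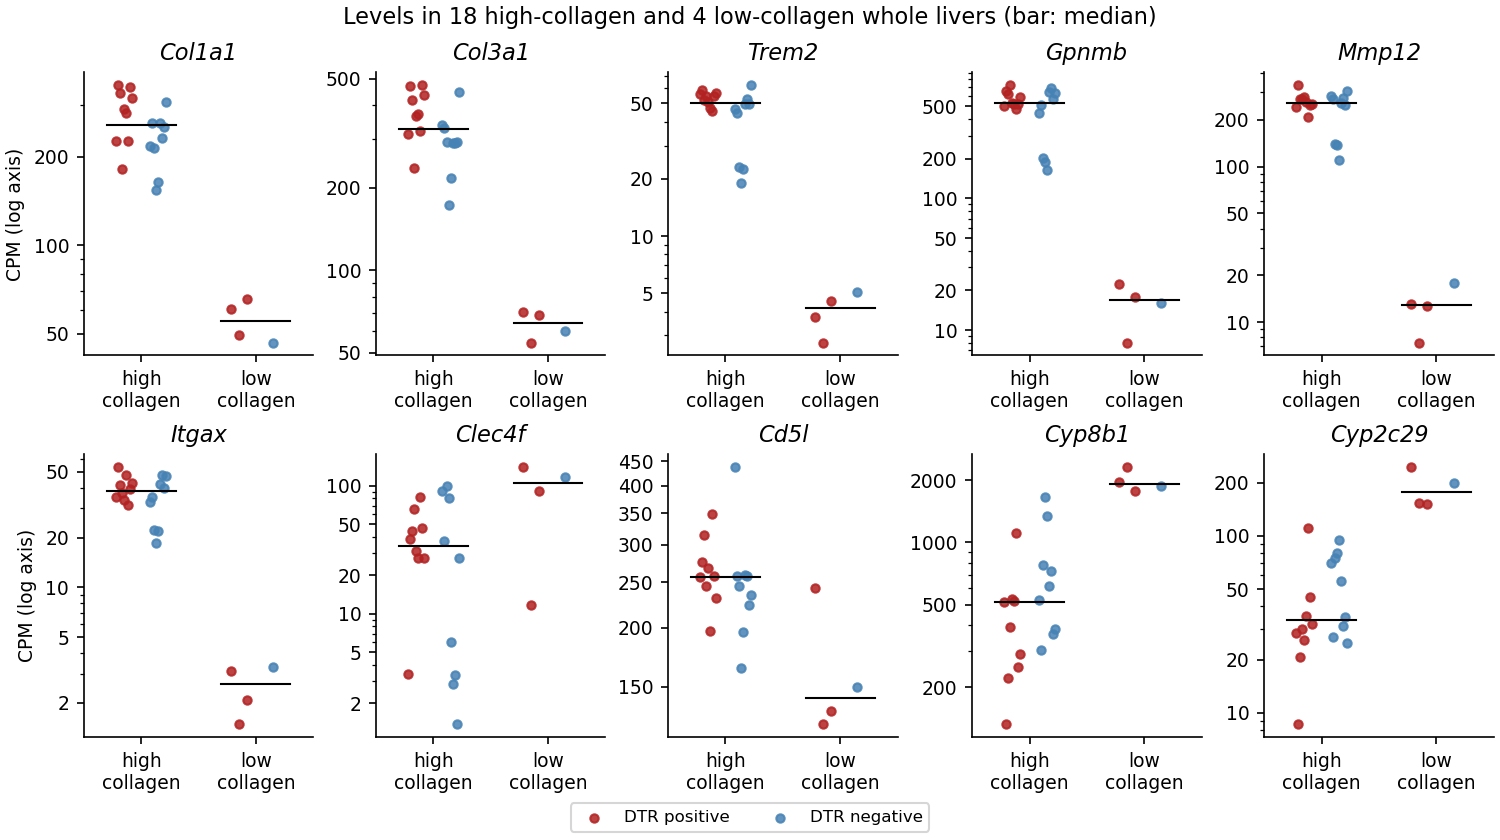
Level of 10 genes in each whole liver, in CPM scaled with TMM on a log axis, with high-collagen livers (n = 18) to the left of low-collagen livers (n = 4) in each panel, points coloured by DTR label and bars at the medians. Gpnmb lies between 164 and 724 CPM in high-collagen livers, against 8.03 to 22.2 CPM in low-collagen livers, while Clec4f spans 1.37 to 99.4 CPM in high-collagen livers, against 11.6 to 140.3 CPM in low-collagen livers.

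Libraries held 5775768 to 9941477 counts in the high-collagen livers and 5389957 to 7648207 counts in the low-collagen livers, so that their depths overlapped. Between 15774 and 16464 genes were detected in the high-collagen livers, against 15001 to 15540 in the low-collagen livers. The 10 most abundant genes took up 13.4% to 18.2% of the counts in high-collagen livers, against 19.6% to 21.8% in low-collagen livers. Albumin alone (Alb) took up 4.24% to 8.09% in high-collagen livers, against 9.68% to 11.3% in low-collagen livers. TMM factors were 0.912 to 1.17 in high-collagen livers, against 0.820 to 0.841 in low-collagen livers. In whole liver RNA, fewer cells of a type and less RNA per cell cannot be told apart.

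Of 12682 genes that passed a filter on low counts, 992 (7.82%) were higher in every high-collagen liver than in any low-collagen liver, and 524 (4.13%) were lower in every one. With a difference of at least 2-fold between the medians as well, 665 (5.24%) were higher and 44 (0.347%) were lower. The balance moved with the scaling. Over the library total, without TMM, the median log2 difference of all genes was 0.32, and 2299 genes were higher and 61 lower in every high-collagen liver, so that 97.4% of the genes without overlap were higher, against 65.4% with TMM. On the deposited TPM the median of all genes was 0.29 and 2025 genes were higher and 76 lower (96.4%). Differences are therefore read relative to the median of all genes, which was -0.00 with TMM. Over the library total the lists of fibrosis signalling, stellate, interferon response, MHC class II and dendritic cell genes had 10, 8, 7, 5 and 4 genes higher in every high-collagen liver, against 4, 4, 3, 3 and 2 with TMM. These percentages with TMM are the background for each gene list, and since the rule used the same libraries nothing is read from how a list's count compares with them.

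Matrix protein genes were higher in high-collagen livers throughout most of the list. Of 27 listed genes besides Col1a1, all of which passed the filter, 19 were higher in every high-collagen liver and 1 was lower (7.82% and 4.13% of all genes), and the median log2 difference was 1.45. Col3a1, the chain of type III collagen, which lies beside type I in scars, measured 173, 326 and 473 CPM in high-collagen livers, against 70.7, 54.5, 68.7 and 59.8 CPM in low-collagen livers, or 5.06-fold. Lum (lumican, a proteoglycan that spaces collagen fibrils) measured 33.8, 62.9 and 90.6 CPM in high-collagen livers, against 10.0, 8.24, 13.1 and 9.27 CPM in low-collagen livers, or 6.24-fold. Thbs2 (thrombospondin 2, a matricellular protein) measured 10.2, 19.4 and 27.0 CPM in high-collagen livers, against 5.63, 3.38, 4.56 and 3.31 CPM in low-collagen livers. These 3 genes were low in each of the 4 low-collagen livers, DTR positive and DTR negative alike. Tnc (tenascin C, a matrix protein of wounds) measured 4.62, 7.84 and 13.2 CPM in high-collagen livers, against 2.03, 0.211, 1.52 and 2.21 CPM in low-collagen livers, again without overlap. The fibril-regulating collagen V gene Col5a2 had medians of 28.7 CPM in high-collagen livers and 8.14 CPM in low-collagen livers, and Col5a1 of 39.3 CPM in high-collagen livers and 16.4 CPM in low-collagen livers. Col6a3, of the beaded-filament collagen VI, had medians of 66.7 CPM in high-collagen livers and 21.3 CPM in low-collagen livers, and the elastin gene Eln of 16.7 CPM in high-collagen livers and 4.57 CPM in low-collagen livers. Col4a1, a basement membrane chain, differed by a smaller step, with medians of 209.8 CPM in high-collagen livers and 108 CPM in low-collagen livers. The sets overlapped in 7 genes with higher medians in high-collagen livers. Among these was Dcn (decorin, a small collagen-binding proteoglycan), with 246, 455 and 521 CPM in high-collagen livers, against 261, 179, 186 and 164 CPM in low-collagen livers, where DTR positive replicate 1 lay inside the high-collagen range. Postn (periostin) measured 19.5, 37.5 and 47.0 CPM in high-collagen livers, against 15.0, 19.6, 15.4 and 16.6 CPM in low-collagen livers, with overlap in DTR positive replicate 2. Fn1 (fibronectin), which hepatocytes also make and secrete into plasma, was lower in every high-collagen liver, with 2288, 2588 and 3174 CPM in high-collagen livers, against 3317, 3315, 3433 and 3412 CPM in low-collagen livers, but not over the library total.

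Genes that build, cross-link or degrade matrix were higher in every high-collagen liver in 14 of the 26 cases that passed the filter (of 29 listed) and lower in 1, with a median log2 difference of 1.36. Mmp12, the macrophage elastase, measured 111, 258 and 334 CPM in high-collagen livers, against 13.1, 7.39, 12.7 and 17.9 CPM in low-collagen livers, or 19.2-fold. Mmp13, the main interstitial collagenase of mice, measured 4.78, 8.22 and 12.3 CPM in high-collagen livers, against 1.09, 0.422, 1.71 and 0.221 CPM in low-collagen livers. Mmp2, a gelatinase of stellate cells and fibroblasts, had medians of 25.8 CPM in high-collagen livers and 6.59 CPM in low-collagen livers. These matrix-degrading enzymes were thus high in the same livers as the collagens. Their inhibitor gene Timp1, a common fibrosis marker, was low in both sets but did not overlap, with 2.93, 3.94 and 6.33 CPM in high-collagen livers, against 0.626, 0.422, 0.951 and 0.442 CPM in low-collagen livers. Timp2 had medians of 71.3 CPM in high-collagen livers and 25.8 CPM in low-collagen livers, also without overlap, whereas Timp3 overlapped, with 28.8, 47.3 and 67.5 CPM in high-collagen livers, against 52.2, 37.2, 28.9 and 28.9 CPM in low-collagen livers. The cross-linking enzyme genes Lox (lysyl oxidase) and Loxl1 were higher in every high-collagen liver, Lox with medians of 6.92 CPM in high-collagen livers and 1.68 CPM in low-collagen livers and Loxl1 of 16.8 CPM in high-collagen livers and 5.18 CPM in low-collagen livers. So were genes of collagen maturation, Serpinh1 (the collagen chaperone) with medians of 38.7 CPM in high-collagen livers and 15.8 CPM in low-collagen livers and Adamts2 (the procollagen N-proteinase) of 32.7 CPM in high-collagen livers and 10.3 CPM in low-collagen livers. Ctsk, a collagen-degrading cathepsin, had medians of 9.02 CPM in high-collagen livers and 1.29 CPM in low-collagen livers. Plau, the urokinase gene, overlapped only just, at 7.32 CPM in the lowest high-collagen liver, against 7.35 CPM in DTR positive replicate 1 of the low-collagen set. Mmp19 was the gene lower in every high-collagen liver, with 56.1, 68.4 and 80.6 CPM in high-collagen livers, against 84.1, 90.4, 91.5 and 108 CPM in low-collagen livers, and over the library total it overlapped.

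Of genes that signal in fibrosis, 4 of the 28 that passed the filter (of 36 listed) were higher in every high-collagen liver and 0 were lower, with a median log2 difference of 0.79. Among ligands, Tgfb2 measured 1.72, 4.55 and 8.39 CPM in high-collagen livers, against 0.782, 1.48, 0.761 and 1.10 CPM in low-collagen livers. Pdgfa measured 10.3, 14.8 and 18.8 CPM in high-collagen livers, against 7.98, 9.72, 7.23 and 6.40 CPM in low-collagen livers, and neither ligand overlapped. Tgfb1, the main TGF-beta of the liver, had medians of 44.2 CPM in high-collagen livers and 19.7 CPM in low-collagen livers with overlap. Pdgfb, a mitogen of stellate cells, measured 4.31, 10.6 and 18.4 CPM in high-collagen livers, against 6.26, 2.53, 3.23 and 0.662 CPM in low-collagen livers, with overlap through DTR positive replicate 1. Among receptors, Tgfbr1 was higher in every high-collagen liver, with medians of 60.5 CPM in high-collagen livers and 37.2 CPM in low-collagen livers, and the PDGF receptor gene Pdgfrb overlapped, with medians of 40.9 CPM in high-collagen livers and 17.7 CPM in low-collagen livers. Fstl1, a secreted follistatin-like glycoprotein, was the remaining gene without overlap, with 17.8, 28.0 and 45.7 CPM in high-collagen livers, against 11.3, 11.2, 8.18 and 8.83 CPM in low-collagen livers. The feedback inhibitor Smad7 overlapped, with a lower median in high-collagen livers (27.7 CPM in high-collagen livers and 32.3 CPM in low-collagen livers).

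Stellate and myofibroblast markers had a smaller median log2 difference (0.76) than the matrix proteins (1.45). Of 22 listed, 21 passed the filter, 4 were higher in every high-collagen liver (Vim, Cygb, S100a6 and Tagln) and 0 were lower. Vim (vimentin, a filament of mesenchymal cells and macrophages) measured 89.1, 154 and 214 CPM in high-collagen livers, against 48.9, 41.6, 43.2 and 31.1 CPM in low-collagen livers. S100a6, a calcium-binding protein, measured 5.92, 8.56 and 10.8 CPM in high-collagen livers, against 1.09, 0.845, 1.90 and 1.55 CPM in low-collagen livers. Cygb (cytoglobin, a globin of stellate cells) measured 18.7, 36.5 and 45.2 CPM in high-collagen livers, against 16.1, 11.8, 13.9 and 13.5 CPM in low-collagen livers. In each of these 3 the 4 low-collagen livers lay below the lowest of the 18. Acta2, the smooth muscle actin by which myofibroblasts are usually recognised, was low in both sets and overlapped, with 3.24, 5.79 and 10.96 CPM in high-collagen livers, against 1.25, 2.75, 3.80 and 2.65 CPM in low-collagen livers. Of the markers of resting stellate cells, Lrat, which esterifies vitamin A, had medians of 48.6 CPM in high-collagen livers and 20.7 CPM in low-collagen livers, and Reln of 118 CPM in high-collagen livers and 68.1 CPM in low-collagen livers, both with overlap. Summed over the list, the markers ran from 596 to 963 CPM in high-collagen livers, against 411 to 619 CPM in low-collagen livers, and their part in the matrix differences was not tested.

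The list of lipid-associated macrophage genes, from which Trem2 and Gpnmb were kept apart, had the largest median log2 difference of the 33 lists, 2.85, with 19 of 22 genes higher and 2 lower in every high-collagen liver. Itgax (CD11c, an integrin of dendritic cells and recruited macrophages) measured 18.5, 38.4 and 53.5 CPM in high-collagen livers, against 3.13, 1.48, 2.09 and 3.31 CPM in low-collagen livers. Spp1 (osteopontin, a secreted matrix-binding cytokine) measured 72.3, 167 and 360.3 CPM in high-collagen livers, against 25.2, 14.6, 23.2 and 18.1 CPM in low-collagen livers. Lgals3 (galectin 3, which marks phagocytic macrophages) measured 109.9, 235 and 295 CPM in high-collagen livers, against 24.7, 14.6, 17.9 and 22.3 CPM in low-collagen livers. None of these 3 overlapped, and each also varied over more than 2-fold among the high-collagen livers. Capg, a protein that caps actin filaments, had medians of 44.3 CPM in high-collagen livers and 4.50 CPM in low-collagen livers. Of the tetraspanins, Cd9 had medians of 64.0 CPM in high-collagen livers and 18.2 CPM in low-collagen livers and Cd63 of 26.1 CPM in high-collagen livers and 3.05 CPM in low-collagen livers. Of genes that handle lipid, Lpl (lipoprotein lipase) had medians of 308 CPM in high-collagen livers and 41.3 CPM in low-collagen livers and Fabp5 (a fatty acid carrier) of 19.8 CPM in high-collagen livers and 1.99 CPM in low-collagen livers. Of lysosomal genes, the cathepsin gene Ctss had medians of 321 CPM in high-collagen livers and 63.4 CPM in low-collagen livers and the proton pump gene Atp6v0d2 of 36.9 CPM in high-collagen livers and 3.76 CPM in low-collagen livers. All of these were without overlap. Apoe, a lipoprotein gene that hepatocytes express strongly, was lower in every high-collagen liver, with 11252, 13423 and 16722 CPM in high-collagen livers, against 19707, 17792, 18259 and 17518 CPM in low-collagen livers. Mreg was the other lower gene, with 45.8, 56.0 and 77.4 CPM in high-collagen livers, against 91.6, 82.8, 80.8 and 97.6 CPM in low-collagen livers, and over the library total neither was without overlap. Plin2, which coats lipid droplets in many cell types, measured 1407, 2059 and 2957 CPM in high-collagen livers, against 1439, 1987, 3558 and 1680.3 CPM in low-collagen livers, and the sets overlapped.

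Among the genes with the largest positive difference, of those without overlap and with a higher median of 10 CPM or more, 7 are described here that are neither markers of the rule nor in the macrophage list. Adam8, a membrane metalloproteinase of leukocytes, measured 17.6, 55.6 and 77.9 CPM in high-collagen livers, against 1.72, 1.48, 1.33 and 2.43 CPM in low-collagen livers, or 26.8-fold. Myo5a, a myosin that moves vesicles, measured 9.82, 22.7 and 30.5 CPM in high-collagen livers, against 1.41, 0.845, 0.761 and 2.21 CPM in low-collagen livers. No low-collagen liver was above 2.43 CPM in either gene. Vsig8, an immunoglobulin-domain gene, had medians of 11.3 CPM in high-collagen livers and 0.442 CPM in low-collagen livers. Ubd, a ubiquitin-like modifier induced by inflammatory cytokines, had medians of 30.8 CPM in high-collagen livers and 2.19 CPM in low-collagen livers. Sprr1a, a gene of the squamous cell envelope, had medians of 11.04 CPM in high-collagen livers and 0.322 CPM in low-collagen livers. The list also held Cib3, with medians of 20.7 CPM in high-collagen livers and 1.30 CPM in low-collagen livers, and the glutathione transferase gene Gstm3, with 23.1, 79.3 and 168 CPM in high-collagen livers, against 7.66, 5.70, 6.85 and 5.08 CPM in low-collagen livers.

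**Figure D2:**
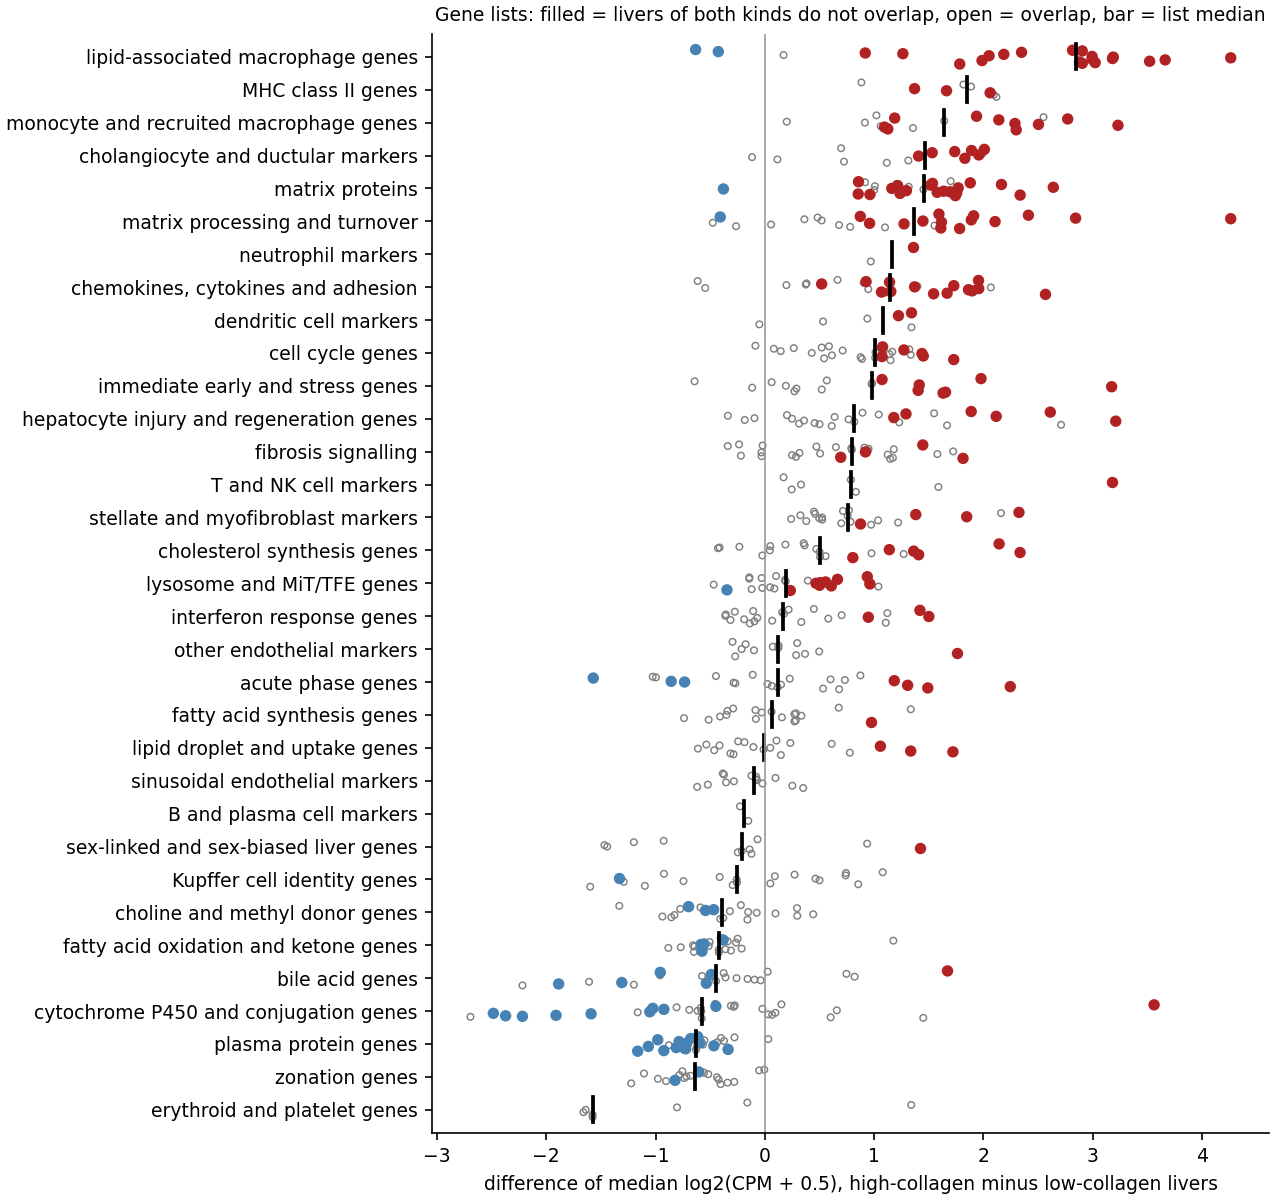
Difference of median log2(CPM + 0.5), high-collagen minus low-collagen livers, for each gene of the 33 lists that passed the filter on low counts. A point is a gene, filled where the sets do not overlap and open where they do, and the bar of each line is the list's median, from 2.85 in lipid-associated macrophage genes to -0.63 in plasma protein genes, -0.64 in zonation genes and -1.58 in erythroid and platelet genes.

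Kupffer cell identity genes mostly overlapped between the sets. Of 20 listed, 19 passed the filter, 0 were higher and 1 (Fcna) was lower in every high-collagen liver, and the median log2 difference was -0.25. Over the library total the median was 0.07, Fcna overlapped, and 1 gene (Id3, a transcription regulator) was higher in every high-collagen liver. Clec4f, the lectin after which the Cre is named, measured 1.37, 33.9 and 99.4 CPM in high-collagen livers, against 140.3, 11.6, 90.7 and 118 CPM in low-collagen livers. The lowest levels of Clec4f came under both labels: in the high-collagen set, DTR positive replicate 3 had 3.37 CPM, and DTR negative replicates 6, 7, 8 and 9 had 6.05, 2.82, 3.31 and 1.37 CPM. Fcna (ficolin A, a soluble pattern-recognition protein) measured 12.9, 17.9 and 36.0 CPM in high-collagen livers, against 53.0, 39.9, 36.9 and 56.7 CPM in low-collagen livers. Cd163, the haemoglobin scavenger receptor, measured 0.455, 4.11 and 20.8 CPM in high-collagen livers, against 12.2, 9.50, 6.66 and 40.6 CPM in low-collagen livers. Timd4 (Tim4, a receptor for dead cells) measured 0.115, 1.06 and 13.002 CPM in high-collagen livers, against 3.44, 2.32, 1.14 and 15.2 CPM in low-collagen livers. For Cd163 and Timd4 the low-collagen livers lay within or above the range of the high-collagen livers, and DTR negative replicate 2 was the highest of all 22. Csf1r, the receptor of the macrophage growth factor, had medians of 202 CPM in high-collagen livers and 120.4 CPM in low-collagen livers, and Adgre1 (F4/80) of 65.8 CPM in high-collagen livers and 30.9 CPM in low-collagen livers. Both overlapped through DTR positive replicate 1, which had 231 CPM of Csf1r and 62.4 CPM of Adgre1, the highest of the 4 low-collagen livers.

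Of genes of monocytes and recruited macrophages, 10 of the 17 that passed the filter (of 18 listed) were higher in every high-collagen liver and 0 were lower, with a median log2 difference of 1.64. Cx3cr1, the fractalkine receptor, measured 9.04, 20.2 and 30.7 CPM in high-collagen livers, against 3.28, 1.69, 1.71 and 1.10 CPM in low-collagen livers. Ccr2, the receptor that brings monocytes into tissue, measured 9.47, 18.5 and 25.1 CPM in high-collagen livers, against 4.22, 2.96, 3.80 and 1.55 CPM in low-collagen livers. Lyz2 (lysozyme M) measured 283, 631 and 755 CPM in high-collagen livers, against 143, 80.3, 95.5 and 88.5 CPM in low-collagen livers. In these 3 genes no low-collagen liver reached the lowest high-collagen liver. Summed over the list, the level was 437 to 1057 CPM in high-collagen livers, against 145 to 258 CPM in low-collagen livers. Ly6c2, the marker of classical monocytes, was near the detection limit, with 1.42, 2.36 and 3.34 CPM in high-collagen livers, against 1.25, 0, 0.571 and 1.10 CPM in low-collagen livers. MHC class II genes, which present antigen, had a median log2 difference of 1.85, with 3 of the 8 that passed the filter (of 10 listed) higher in every high-collagen liver. H2-Eb1 measured 63.3, 106 and 151 CPM in high-collagen livers, against 54.9, 21.8, 28.7 and 18.1 CPM in low-collagen livers. H2-Aa, H2-Ab1 and Cd74 overlapped only through DTR positive replicate 1, and of these H2-Aa had medians of 148 CPM in high-collagen livers and 33.6 CPM in low-collagen livers.

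Of chemokine, cytokine and adhesion genes, 14 of the 26 that passed the filter (of 36 listed) were higher in every high-collagen liver, with a median log2 difference of 1.15. Ccl2, the ligand of Ccr2, measured 4.51, 6.34 and 10.3 CPM in high-collagen livers, against 0.938, 0.422, 1.33 and 0.221 CPM in low-collagen livers. Cxcl10, an interferon-induced attractant of T cells, measured 9.03, 11.6 and 20.1 CPM in high-collagen livers, against 2.81, 1.48, 2.85 and 2.43 CPM in low-collagen livers. Tnfrsf12a, the TWEAK receptor of injured epithelium, measured 26.8, 49.8 and 82.9 CPM in high-collagen livers, against 7.04, 16.3, 23.2 and 9.49 CPM in low-collagen livers. None of these overlapped, whereas Il1b did, with 2.15, 4.87 and 9.18 CPM in high-collagen livers, against 7.04, 8.03, 1.14 and 1.77 CPM in low-collagen livers. The adhesion gene Icam1 had medians of 52.9 CPM in high-collagen livers and 23.7 CPM in low-collagen livers, and Vcam1 of 59.0 CPM in high-collagen livers and 31.4 CPM in low-collagen livers, both without overlap. Interferon response genes had 3 of 22 higher in every high-collagen liver (Mx1, Gbp2 and Oasl2), 0 lower and a median of 0.17. Of 23 T and NK cell markers listed, 7 passed the filter, and 1, the cytokine receptor gene Il7r, did not overlap, with 4.17, 11.1 and 14.1 CPM in high-collagen livers, against 0, 0.634, 0.951 and 1.10 CPM in low-collagen livers. Cd3e, of the T cell receptor complex, measured 0.299, 1.72 and 3.36 CPM in high-collagen livers, against 0.626, 1.06, 0 and 0.883 CPM in low-collagen livers. The T and NK cell markers summed to 26.7 to 59.0 CPM in high-collagen livers, against 13.7 to 20.5 CPM in low-collagen livers, and their part in the immune differences was not tested. Only 2 of 12 B and plasma cell markers and 2 of 13 neutrophil markers passed the filter, and Ly6g, which defines neutrophils, was at most 0.115 CPM in high-collagen livers and at 0 counts in the low-collagen livers. Of dendritic cell markers, 2 of the 6 that passed (of 12 listed) were higher in every high-collagen liver, Irf8 with medians of 27.4 CPM in high-collagen livers and 10.6 CPM in low-collagen livers and Siglech of 3.08 CPM in high-collagen livers and 1.06 CPM in low-collagen livers.

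Sinusoidal endothelial markers overlapped in 14 of 14 cases, with a median log2 difference of -0.10, which became 0.24 over the library total. Stab2, a scavenger receptor of these cells, measured 55.8, 82.4 and 128 CPM in high-collagen livers, against 158, 122, 132 and 107 CPM in low-collagen livers. Of other endothelial markers 1 of 13 was higher in every high-collagen liver, Cd34, a marker of capillary endothelium and of progenitors, with 4.16, 7.43 and 12.3 CPM in high-collagen livers, against 2.19, 0.845, 2.28 and 1.55 CPM in low-collagen livers. Cholangiocyte and ductular markers were higher in every high-collagen liver in 7 of the 14 cases that passed the filter (of 18 listed), with a median of 1.47. Bicc1, an RNA-binding protein of ductal epithelium, measured 9.90, 20.3 and 45.8 CPM in high-collagen livers, against 7.98, 4.22, 5.14 and 3.97 CPM in low-collagen livers. Anxa3, an annexin, measured 9.04, 19.3 and 25.6 CPM in high-collagen livers, against 6.10, 3.80, 6.09 and 3.31 CPM in low-collagen livers. Sox4, a transcription factor of ductular cells, measured 6.89, 16.3 and 52.4 CPM in high-collagen livers, against 5.47, 3.59, 4.95 and 3.53 CPM in low-collagen livers. The spread of Bicc1 and Sox4 among high-collagen livers was several-fold, and their lowest values lay just above the low-collagen livers. The duct keratin gene Krt19 was near the floor and overlapped, with 0.897, 2.10 and 5.12 CPM in high-collagen livers, against 0.938, 0.634, 0.761 and 0.221 CPM in low-collagen livers. Sox9, the duct transcription factor, measured 16.3, 29.3 and 46.9 CPM in high-collagen livers, against 34.2, 36.3, 21.3 and 20.8 CPM in low-collagen livers, so that the low-collagen livers lay inside the high-collagen range. Summed, the ductular list ran from 117 to 311 CPM in high-collagen livers, against 83.5 to 118 CPM in low-collagen livers.

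Genes of hepatocyte injury and regeneration had 6 of 25 higher in every high-collagen liver and a median of 0.82. Atf3, a stress-induced transcription factor, measured 19.9, 38.6 and 78.7 CPM in high-collagen livers, against 2.35, 1.69, 6.47 and 5.74 CPM in low-collagen livers, or 9.27-fold. Ly6d measured 73.0, 162 and 246 CPM in high-collagen livers, against 26.3, 24.5, 40.1 and 25.8 CPM in low-collagen livers. Neither overlapped, and both were several-fold apart at the medians. Cd44, the hyaluronan receptor, had medians of 73.2 CPM in high-collagen livers and 29.6 CPM in low-collagen livers, and Hmox1, the haem-degrading enzyme, of 113 CPM in high-collagen livers and 49.5 CPM in low-collagen livers, both without overlap. The p53 target Cdkn1a overlapped, with 97.3, 151 and 214 CPM in high-collagen livers, against 40.5, 78.4, 168 and 144 CPM in low-collagen livers. The unfolded protein response gene Ddit3 (CHOP) also overlapped, with 6.45, 8.57 and 16.7 CPM in high-collagen livers, against 3.91, 4.86, 11.4 and 8.83 CPM in low-collagen livers. For both of these, DTR positive replicate 7 and DTR negative replicate 2 lay inside the range of the high-collagen livers. Immediate early and stress genes had 7 of the 17 that passed the filter (of 20 listed) higher in every high-collagen liver. Egr2, an early growth response factor, measured 4.59, 9.24 and 14.7 CPM in high-collagen livers, against 0.782, 0.422, 0.761 and 0.221 CPM in low-collagen livers, while Egr1 overlapped, with 40.4, 91.8 and 261 CPM in high-collagen livers, against 71.8, 28.9, 138 and 309 CPM in low-collagen livers. Jun and Fos, partners in the AP-1 factor, did not overlap, Jun with medians of 94.8 CPM in high-collagen livers and 35.6 CPM in low-collagen livers and Fos of 11.3 CPM in high-collagen livers and 3.56 CPM in low-collagen livers. Cell cycle genes had 6 of the 25 that passed the filter (of 26 listed) higher in every high-collagen liver and a median of 1.01. Top2a, a topoisomerase of dividing cells, measured 4.98, 10.6 and 20.6 CPM in high-collagen livers, against 2.97, 2.75, 3.80 and 2.21 CPM in low-collagen livers, without overlap. Mki67 measured 10.1, 24.9 and 41.9 CPM in high-collagen livers, against 11.6, 10.3, 5.90 and 12.4 CPM in low-collagen livers, with overlap in 3 of the 4 low-collagen livers.

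**Figure D3:**
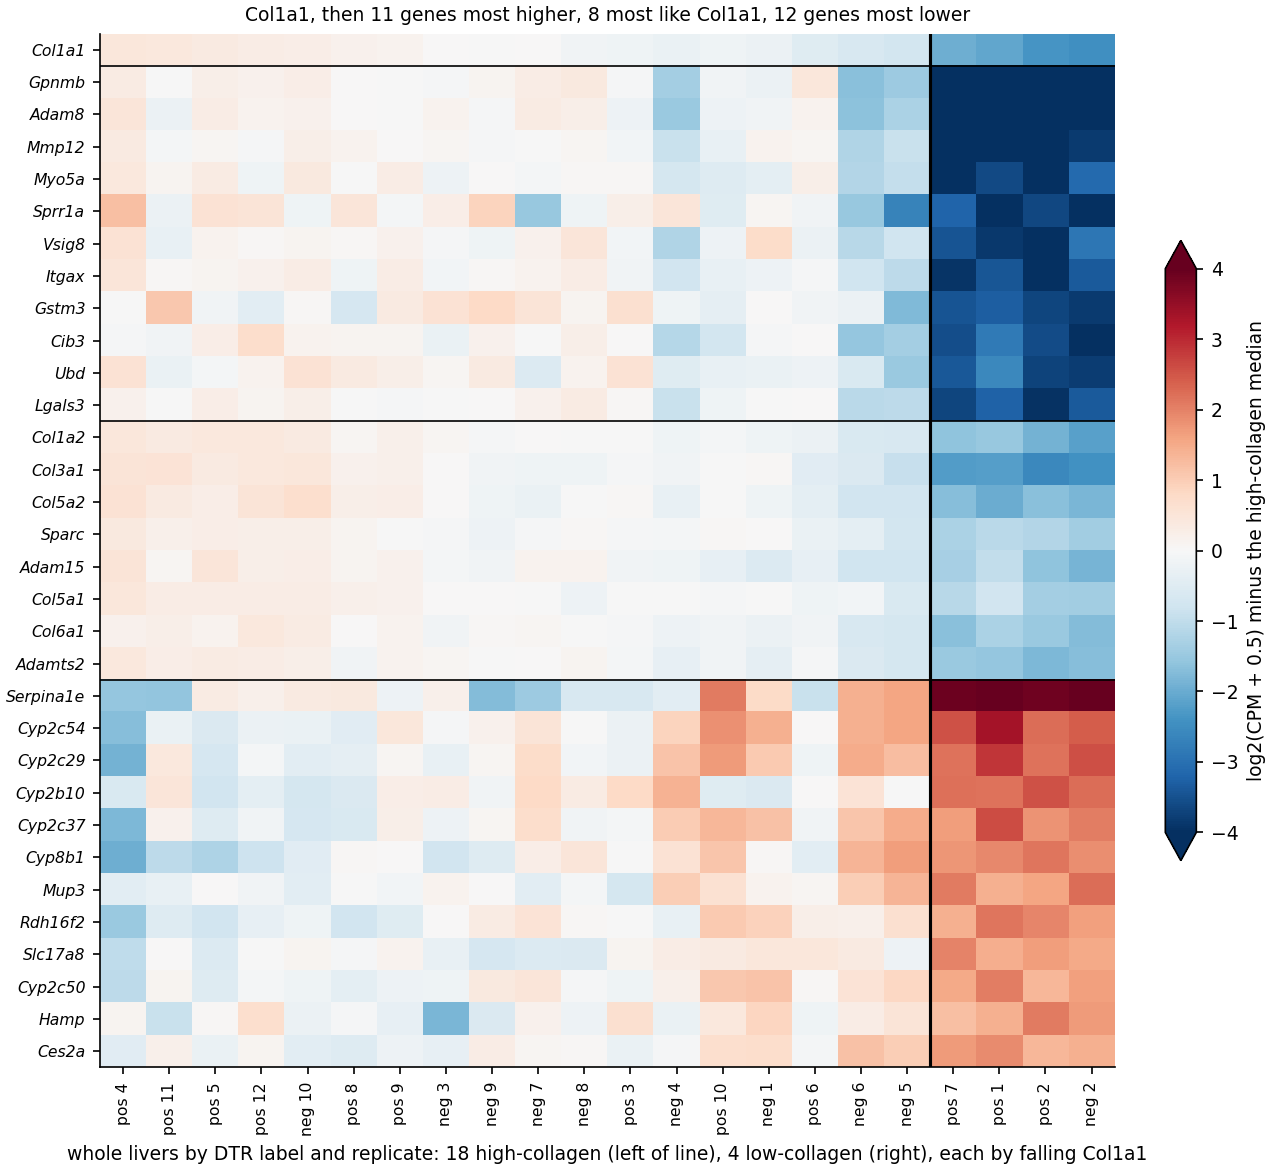
Level of Col1a1 and of the named genes (lines) in each whole liver (columns) as log2(CPM + 0.5) minus the gene's median over the high-collagen livers, with high-collagen livers left of low-collagen livers, each ordered by falling Col1a1, and the colour scale ending at 4 either way. The 11 genes shown with the largest positive difference are blue in the 4 low-collagen livers and the 12 with the largest negative one red, and DTR negative replicates 4, 5 and 6 of the high-collagen set are paler blue for Gpnmb, at 203, 190.0 and 164 CPM.

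Genes of hepatocyte function were among those lower in high-collagen livers. Of 25 plasma protein genes, 15 were lower in every high-collagen liver and 0 were higher (4.13% and 7.82% of all genes), with a median log2 difference of -0.63, and over the library total 7 were lower in every one. Alb measured 36218, 55934 and 83006 CPM in high-collagen livers, against 129500.0, 138263, 121160.0 and 115219 CPM in low-collagen livers, a log2 difference of -1.16. Apoa1, the main protein of HDL, measured 5079.8, 7059 and 10095 CPM in high-collagen livers, against 12757, 15439, 14052 and 12138 CPM in low-collagen livers. Fetub, a fetuin, had medians of 333 CPM in high-collagen livers and 658 CPM in low-collagen livers. No liver overlapped for these 3 genes. Serpina1e, a member of the mouse alpha-1 antitrypsin cluster, measured 113, 386 and 1624 CPM in high-collagen livers, against 6392, 5687, 5772 and 6123 CPM in low-collagen livers, a log2 difference of -3.96. The Serpina1 genes are near-identical copies between which reads cannot always be assigned, so their single values are uncertain. Summed, the plasma protein list ran from 92672 to 163744 CPM in high-collagen livers, against 213939 to 238761 CPM in low-collagen livers. Of 23 acute phase genes 4 were higher and 3 lower in every high-collagen liver, with a median of 0.12. Scaled to the library total, 8 were higher and 1, Hamp, was lower, with a median of 0.46. Lcn2 (lipocalin 2, which binds bacterial siderophores) measured 342, 548 and 846 CPM in high-collagen livers, against 116, 103, 114 and 173 CPM in low-collagen livers. Hamp (hepcidin, the iron hormone) measured 53.1, 191 and 346 CPM in high-collagen livers, against 515, 800.0, 435 and 623 CPM in low-collagen livers. Lcn2 was thus higher and Hamp lower in all 18 high-collagen livers, while Saa1, whose near-identical copies share reads, overlapped, with medians of 168 CPM in high-collagen livers and 105 CPM in low-collagen livers.

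Of cytochrome P450 and conjugation genes, 9 of the 30 that passed the filter (of 35 listed) were lower in every high-collagen liver and 1, Gstm3, was higher, with a median of -0.58. Over the library total 7 were lower in every high-collagen liver. Cyp2c29 measured 8.61, 33.5 and 111 CPM in high-collagen livers, against 245, 153, 151 and 200.02 CPM in low-collagen livers. Cyp2c37 measured 13.9, 49.3 and 138 CPM in high-collagen livers, against 306, 171, 159 and 203 CPM in low-collagen livers. Cyp2c54 measured 7.08, 24.5 and 87.4 CPM in high-collagen livers, against 249, 117, 145 and 133 CPM in low-collagen livers. These Cyp2c genes spread several-fold among the high-collagen livers and still did not overlap with the low-collagen livers. They lie in a cluster of similar copies, so their single values are uncertain. Cyp2c50 had medians of 146 CPM in high-collagen livers and 442 CPM in low-collagen livers, and Cyp2b10, a target of the xenobiotic receptor CAR, of 3.63 CPM in high-collagen livers and 18.7 CPM in low-collagen livers. Cyp2e1, the ethanol-oxidising enzyme of pericentral hepatocytes, measured 3639, 5721 and 9441 CPM in high-collagen livers, against 10995, 11909, 11797 and 13434 CPM in low-collagen livers. Cyp4a14, a fatty acid hydroxylase under PPAR-alpha, measured 3375, 5508 and 8169.5 CPM in high-collagen livers, against 10968, 12993, 11441 and 10523 CPM in low-collagen livers. Both abundant genes were lower in all 18, whereas Cyp3a11, the main drug-metabolising P450 of mouse liver, overlapped, with 429.7, 903 and 1208 CPM in high-collagen livers, against 891, 716, 406 and 456 CPM in low-collagen livers. The 12 genes with the largest negative difference also held Rdh16f2, a retinol dehydrogenase, with medians of 41.5 CPM in high-collagen livers and 145 CPM in low-collagen livers. Among them too were Slc17a8, a glutamate transporter, with medians of 18.1 CPM in high-collagen livers and 56.0 CPM in low-collagen livers, and the carboxylesterase gene Ces2a, with medians of 23.7 CPM in high-collagen livers and 70.9 CPM in low-collagen livers.

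Bile acid genes had 5 of 21 lower and 1 higher in every high-collagen liver and a median of -0.45, and over the library total 1, Slc10a1, was lower. Cyp8b1, the sterol 12-alpha-hydroxylase that makes cholic acid, measured 133, 519 and 1662 CPM in high-collagen livers, against 1958, 2312, 1767 and 1881 CPM in low-collagen livers. Slc10a1 (NTCP, which takes bile acids up from blood) measured 143, 300.0 and 513 CPM in high-collagen livers, against 776, 792, 612 and 713 CPM in low-collagen livers. Slc27a5, which couples bile acids to coenzyme A, measured 357, 493 and 788 CPM in high-collagen livers, against 1032, 942, 870.3 and 974 CPM in low-collagen livers. All 3 were lower in each of the 18 high-collagen livers than in the lowest of the 4 low-collagen livers. Nr1h4 (FXR, the bile acid receptor) had medians of 113 CPM in high-collagen livers and 159 CPM in low-collagen livers, and Cyp27a1 of the acidic pathway of 361 CPM in high-collagen livers and 523 CPM in low-collagen livers, also without overlap. Cyp7a1, the rate-limiting enzyme of bile acid synthesis, had the largest difference of medians of the list but overlapped, with 15.8, 48.6 and 134 CPM in high-collagen livers, against 382, 241, 86.7 and 216 CPM in low-collagen livers. Abcb11, the bile salt export pump, had medians of 471 CPM in high-collagen livers and 503 CPM in low-collagen livers with overlap. Slc51b, a basolateral exporter, was low but higher in every high-collagen liver, with 0.807, 1.65 and 2.65 CPM in high-collagen livers, against 0.156, 0.422, 0.190 and 0 CPM in low-collagen livers.

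Genes expressed by zone of the liver lobule had a median of -0.64, with 0 of 20 medians higher in high-collagen livers and 2 genes lower in every one. Among pericentral genes, Oat (ornithine aminotransferase) measured 466, 769 and 1944 CPM in high-collagen livers, against 1569.8, 1790.1, 1800.0 and 1977 CPM in low-collagen livers, with overlap. Slc1a2, a glutamate transporter, measured 113, 165 and 271 CPM in high-collagen livers, against 295, 286, 288 and 388 CPM in low-collagen livers, without overlap. Among periportal genes, Asl, a urea cycle enzyme, measured 272, 497 and 887 CPM in high-collagen livers, against 1073, 1186, 748 and 1067 CPM in low-collagen livers. Medians were thus lower on both sides of the lobule, and in Asl DTR positive replicate 7 lay inside the high-collagen range. Choline and methyl donor genes, which bear on the nutrient missing from the diet, had a median of -0.39 and 3 of 20 lower in every high-collagen liver. Mat1a, which makes S-adenosylmethionine, overlapped, with medians of 6461 CPM in high-collagen livers and 12379.6 CPM in low-collagen livers, and Pemt, which makes phosphatidylcholine by methylation, had medians of 216 CPM in high-collagen livers and 241 CPM in low-collagen livers. Fatty acid oxidation and ketone genes had a median of -0.42 and 4 of 23 lower in every high-collagen liver. Pdk4, which spares glucose, had the higher median in high-collagen livers, with 57.1, 110.2 and 373 CPM in high-collagen livers, against 52.7, 60.0, 44.5 and 29.4 CPM in low-collagen livers, and DTR positive replicate 2 overlapped. Over the library total the zonation, choline and fatty acid oxidation lists had medians of -0.33, -0.08 and -0.09, and 0 of their genes were lower in every high-collagen liver.

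In the lists of fatty acid synthesis, cholesterol synthesis and lipid droplet genes, those without overlap were all higher in high-collagen livers, while most genes overlapped. Fatty acid synthesis genes had a median of 0.06 (0.38 over the library total), and 1 of the 19 that passed the filter (of 20 listed) was higher in every high-collagen liver, Fasn (fatty acid synthase), with 76.4, 119 and 206 CPM in high-collagen livers, against 52.2, 63.8, 60.9 and 59.4 CPM in low-collagen livers. Scd1, the stearoyl-CoA desaturase, overlapped, with 45.4, 116 and 366 CPM in high-collagen livers, against 95.6, 27.5, 95.7 and 272 CPM in low-collagen livers. Cholesterol synthesis genes had 6 of the 21 that passed the filter (of 22 listed) higher in every high-collagen liver and a median of 0.50, with 17 of the 21 medians higher, and over the library total 11 were higher in every one. Sqle (squalene epoxidase) measured 9.43, 17.3 and 35.4 CPM in high-collagen livers, against 5.63, 1.69, 5.14 and 1.55 CPM in low-collagen livers. It was lower in each of the 4 low-collagen livers than in any high-collagen liver. Lipid droplet and uptake genes had 3 of the 19 that passed (of 20 listed) higher in every high-collagen liver and a median of -0.01, which became 0.25 over the library total. Cd36, a fatty acid transporter of macrophages and steatotic hepatocytes, measured 191, 465 and 610.3 CPM in high-collagen livers, against 145, 150.4, 118 and 136 CPM in low-collagen livers. Fabp4, the fatty acid carrier of fat cells and macrophages, measured 10.6, 20.5 and 26.8 CPM in high-collagen livers, against 7.66, 9.08, 7.99 and 7.06 CPM in low-collagen livers. Neither overlapped, and Cd36 in the lowest high-collagen liver was close to the low-collagen livers. Of 23 lysosome genes, 9 were higher and 1 (Lamp2) was lower in every high-collagen liver, with a median of 0.19. There were 17 higher and 0 lower over the library total, with a median of 0.52. Psap (prosaposin) had medians of 1854 CPM in high-collagen livers and 968 CPM in low-collagen livers, and Npc2, which carries cholesterol out of lysosomes, of 144 CPM in high-collagen livers and 73.6 CPM in low-collagen livers. Hbb-bs, a haemoglobin gene, which reports blood left in the tissue, measured 5.50, 18.9 and 88.0 CPM in high-collagen livers, against 73.0, 56.2, 30.8 and 65.8 CPM in low-collagen livers, and its part in the other differences was not tested. Of 18 sex-linked and sex-biased liver genes 11 passed the filter, with a median of -0.21, which became 0.08 over the library total. Only 2 of the 11 had a higher median in high-collagen livers, and without overlap 1 was higher and 0 were lower. That gene was Mup20, with 1656, 2139 and 2806 CPM in high-collagen livers, against 629, 608, 1447 and 1012 CPM in low-collagen livers. Mup3, outside the list, was lower in every high-collagen liver, with medians of 845 CPM in high-collagen livers and 3032 CPM in low-collagen livers. The Mup genes are near-identical copies and their single values are uncertain.

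Which genes follow Col1a1 within the high-collagen set was tested over its 18 livers, as a slope in log2 units per doubling of Col1a1 with the DTR label as a covariate (edgeR's quasi-likelihood test, Benjamini-Hochberg adjustment over 12701 genes). Of 27 matrix protein genes 24 rose with Col1a1. A minority of genes in the hepatocyte lists fell, 8 of 21 bile acid genes (where 2 rose), 8 of 30 P450 and conjugation genes and 10 of 25 plasma protein genes. In all, 555 genes (4.37%) rose and 414 (3.26%) fell at an adjusted p under 0.05. The split depends on the values used, since limma on log2(TPM + 1) gave 2093 rising and 90 falling genes, with a median slope of all genes of 0.17 and 4, 5 and 5 falling genes in those 3 hepatocyte lists. The counts rest on few livers. Without DTR negative replicate 5, the liver with the lowest Col1a1 of the set, 57 genes rose and 13 fell. Without the 2 livers farthest from the median (DTR negative replicates 5 and 6), 6 (0.0468%) rose and 0 fell, with 1521 of 12827 at an unadjusted p under 0.05. Those 6 were Col1a2, Col3a1, Col5a1, Col5a2, Col4a5 and Atp8b2, which are 5 collagen genes and a phospholipid flippase. Leaving out DTR negative replicate 6 or 10 or DTR positive replicate 4 or 10 gave 365, 362, 377 and 628 called genes, against 969 with all 18.

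Among matrix proteins 24 of 27 genes rose along the gradient and 0 fell. Col1a2 had a slope of 0.87 ± 0.07 (adjusted p = 1.5e-06), and Col3a1 of 1.02 ± 0.10 (adjusted p = 1.4e-05), so that both changed nearly in proportion to Col1a1. Col5a2 and Col6a3 had slopes of 1.06 ± 0.13 (adjusted p = 0.000256) and 0.99 ± 0.14 (adjusted p = 0.000827). Sparc, a collagen-binding glycoprotein, had a slope of 0.64 ± 0.10 (adjusted p = 0.00126). Col4a5, a basement membrane chain outside the list, had a slope of 1.49 ± 0.22 (adjusted p = 0.00126), at a low level of 2.40 to 7.99 CPM in the 18 livers. Fn1 and Dcn did not pass, with slopes of -0.02 ± 0.11 (adjusted p = 0.928) and 0.47 ± 0.16 (adjusted p = 0.0751). Of matrix processing genes 11 of 26 rose and 0 fell. Among them Adamts2 had a slope of 0.76 ± 0.11 (adjusted p = 0.00126) and Timp2 of 0.80 ± 0.15 (adjusted p = 0.00582). Adam15, a membrane metalloproteinase outside the list, had a slope of 1.00 ± 0.14 (adjusted p = 0.000827). Timp1 and Mmp13, which did not overlap between the sets, had slopes of 0.57 ± 0.24 (adjusted p = 0.147) and 0.10 ± 0.26 (adjusted p = 0.858) that did not pass. Of fibrosis signalling genes 8 of 28 rose, with Fstl1 at 0.91 ± 0.14 (adjusted p = 0.00126) and Ltbp2, a TGF-beta binding protein, at 1.37 ± 0.32 (adjusted p = 0.0152). Of stellate markers 5 of 21 rose, with Lama2, a laminin chain, at 1.14 ± 0.22 (adjusted p = 0.00622), and Acta2 did not pass, at 0.71 ± 0.35 (adjusted p = 0.214). Ccdc80, a matrix protein outside the lists, rose with a slope of 0.88 ± 0.13 (adjusted p = 0.00126).

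In the lipid-associated macrophage list, 12 of 22 genes rose and 0 fell, with Spp1 at 1.20 ± 0.20 (adjusted p = 0.00327), Lpl at 0.95 ± 0.18 (adjusted p = 0.00622) and Itgax at 0.88 ± 0.19 (adjusted p = 0.0114). Trem2 rose with a slope of 0.81 ± 0.24 (adjusted p = 0.0395), whereas Gpnmb, at 0.89 ± 0.34 (adjusted p = 0.109), did not pass. In both genes 3 livers stood apart from the other 15 of the set. Gpnmb measured 203, 190.0 and 164 CPM in DTR negative replicates 4, 5 and 6, and Trem2 measured 23.1, 19.1 and 22.5 CPM in them. Without the 2 livers farthest from the median Col1a1 the slopes were 0.34 for Trem2 (adjusted p = 0.582) and 0.22 for Gpnmb (adjusted p = 0.824). The call of Trem2 ended without DTR negative replicate 3, 5, 6, 9 or 10 or DTR positive replicate 4 or 10 (slopes 0.81, 0.60, 0.67, 0.79, 0.70, 0.85 and 0.81). Gpnmb passed in limma on log2(TPM + 1) (slope 1.28), without the label as covariate (0.96), with Col1a2 in place of Col1a1 (1.21) and without DTR positive replicate 6 (1.55). It also passed over all 22 livers (2.07), which take in the difference between the sets. Of monocyte genes 7 of 17 rose, with Cx3cr1 at 1.03 ± 0.20 (adjusted p = 0.00652), and of MHC class II genes 6 of 8, with H2-Ab1 at 0.51 ± 0.13 (adjusted p = 0.0234). Of ductular markers 6 of 14 rose, with Bicc1 at 1.21 ± 0.19 (adjusted p = 0.00194) and Epcam, an epithelial adhesion gene, at 1.40 ± 0.36 (adjusted p = 0.0252). Of the injury list 3 of 25 rose, Atf3 among them at 0.98 ± 0.20 (adjusted p = 0.00762). Of Kupffer identity, interferon response and cell cycle genes 0 rose and 0 fell by edgeR, with Clec4f at -1.10 ± 0.93 (adjusted p = 0.497), Cd163 at -2.12 ± 0.70 (adjusted p = 0.0633) and Mki67 at 0.73 ± 0.28 (adjusted p = 0.106).

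Among the falling genes, Cyp8b1 fell with a slope of -2.20 ± 0.37 (adjusted p = 0.00305), and the uptake transporter Slc10a1 with -0.97 ± 0.21 (adjusted p = 0.0109). DTR negative replicates 5 and 6 measured 1662 and 1343 CPM of Cyp8b1, near the low-collagen livers, while DTR positive replicate 4, with the highest Col1a1, measured 133 CPM. Sult2a8, a sulfotransferase of bile acids, fell with a slope of -1.68 ± 0.25 (adjusted p = 0.00133), and Oat with -1.23 ± 0.22 (adjusted p = 0.00497). Gys2, liver glycogen synthase, fell with -0.73 ± 0.13 (adjusted p = 0.00497), and Pdzk1, a scaffold of membrane transporters, with -0.65 ± 0.10 (adjusted p = 0.00194). Without DTR negative replicate 5 the calls of Oat and Gys2 ended, at slopes of -0.96 and -0.60. Wfdc21 and Hacd3, of very long-chain fatty acid synthesis, fell with -0.90 ± 0.13 (adjusted p = 0.00121) and -0.49 ± 0.08 (adjusted p = 0.00396). Alb, which was lower in every high-collagen liver, did not pass among them, at -0.39 ± 0.19 (adjusted p = 0.214), while Apoa1 fell with -0.62 ± 0.15 (adjusted p = 0.0164). Slc51b and Abcc4, exporters to blood, were the 2 bile acid genes that rose, at 1.12 ± 0.32 (adjusted p = 0.0391) and 0.98 ± 0.29 (adjusted p = 0.0394).

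The genes whose log2 level was most like that of Col1a1 over the 18 high-collagen livers were, by Pearson's r, Col1a2 (0.97), Col3a1 (0.95), Col5a2 (0.92), Sparc (0.90), Adam15 (0.90), Col5a1 (0.90), Col6a1 (0.90) and Adamts2 (0.90). This is a description over livers that share their diet and processing. For 8 genes the relation was also tested by permutation over the 18 livers with 100000 resamples, two-sided and adjusted over the 8. Unlike the slopes, these correlations do not take the DTR label into account, so the 2 sets of p-values are not of the same model. Col3a1 had r = 0.95 and rho = 0.87, with raw permutation p = 1e-05 for r, the smallest that the permutations can give, and 2e-05 for rho (adjusted 8e-05 and 0.00016), and r = 0.91 without the 2 farthest livers. Cyp2e1 had r = -0.73 and rho = -0.74, with raw permutation p = 0.00064 and 0.00063 (adjusted 0.00245 and 0.00252), and r = -0.61 without those livers. Timp1 had r = 0.54 and rho = 0.56, with raw permutation p = 0.0225 and 0.0166 (adjusted 0.036 and 0.0332), and r = 0.62 without those livers. Acta2 did not reach 0.05, with r = 0.37 and rho = 0.35 (raw permutation p = 0.131 and 0.148, adjusted 0.15 and 0.169). Krt19 did not either, with r = 0.39 and rho = 0.39 (raw permutation p = 0.104 and 0.113, adjusted 0.139 and 0.151). Trem2 had r = 0.72 and rho = 0.68 over all 18, with raw permutation p = 0.00092 and 0.00291 (adjusted 0.00245 and 0.00776). Gpnmb had r = 0.65 and rho = 0.53, with raw permutation p = 0.00287 and 0.0242 (adjusted 0.00574 and 0.0387). In both genes DTR negative replicates 4, 5 and 6 stood apart, and these values take in those 3 livers. Without the 2 farthest livers, of which both are among those 3, r was 0.41 for Trem2 (permutation p = 0.102) and 0.28 for Gpnmb (permutation p = 0.305). Clec4f had r = 0.00 and rho = -0.22 (raw permutation p = 0.987 and 0.389, adjusted 0.987 and 0.389).

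**Figure D4:**
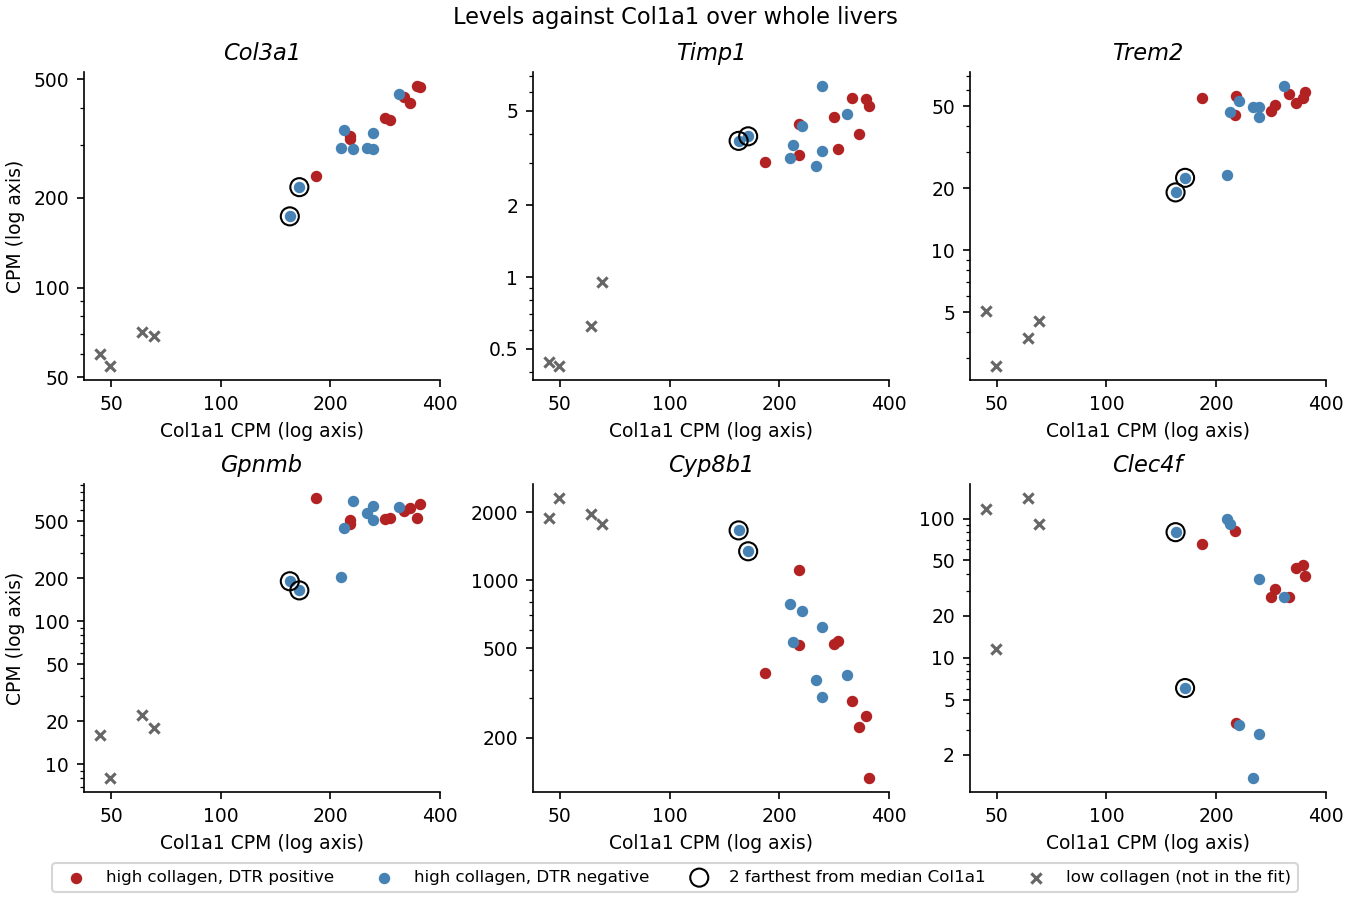
Level of 6 genes against Col1a1 in each whole liver, both in CPM scaled with TMM on log axes, with high-collagen livers as points coloured by DTR label (n = 18), the 2 farthest from the median Col1a1 ringed, and low-collagen livers as crosses (n = 4, not in the fit). Col3a1 follows Col1a1 along the high-collagen livers (slope 1.02), Cyp8b1 runs the other way (slope -2.20), and 3 DTR negative livers lie apart in Trem2 and Gpnmb.

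The DTR label is the contrast that the labels give among whole livers, and by it no gene was called. Mean log2 Col1a1 was 7.55 ± 1.06 in DTR positive livers (SD, n = 12) and 7.59 ± 0.78 in DTR negative livers (SD, n = 10), a difference of -0.03 (permutation test, two-sided, p = 0.918). Among high-collagen livers the difference was 0.30 (n = 9 each, permutation test, two-sided, p = 0.066). Over all 22 livers 0 of 12682 genes were called by label in edgeR, with 477 at an unadjusted p under 0.05, and DESeq2 also called 0, with 489. With Col1a1 as covariate edgeR called 0 as well, with 942 at an unadjusted p under 0.05. In the high-collagen livers only it called 0 of 12702 genes, with 1549 at an unadjusted p under 0.05. The low-collagen set took in 3 of the 12 DTR positive livers and 1 of the 10 DTR negative livers. Within DTR positive livers (9 high-collagen and 3 low-collagen) 1993 genes were higher and 1664 lower in every high-collagen liver. Within DTR negative livers (9 high-collagen and 1 low-collagen) 3253 were higher and 2616 lower, where fewer livers have to be apart. Whether slopes on Col1a1 differed by label was tested as an interaction, which called 0 of 12701 genes in edgeR (1096 at an unadjusted p under 0.05), 45 in DESeq2 and 13 in edgeR without the filter on low counts. The slope in DTR positive minus that in DTR negative livers was -1.61 for Trem2 and -2.28 for Gpnmb (edgeR adjusted p = 0.0785 and 0.089), and both genes were among those called in DESeq2 and without the filter. DTR negative replicates 4, 5 and 6 enter both values.

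Sorted Kupffer cells gave values for the same genes in libraries that the rule did not use. They came from C57BL/6J mice, sorted as F4/80-high and Tim4-positive cells, with 4 libraries after 30 weeks of a NASH diet and 3 from mice on control diet at week 0. This is another diet course than that of the livers, so the values are set side by side without a comparison of sizes. The cells were chosen by Tim4, so Timd4 is no finding here. Of 14552 genes 2255 (15.5%) rose and 2182 (15%) fell at week 30 (edgeR's quasi-likelihood test over 17 time-course libraries, Benjamini-Hochberg adjustment). On log2(TPM + 1) limma gave 1149 rising and 4685 falling genes, with a median log2 change of all genes of -0.23. Gpnmb had 1755, 1572, 1354 and 1733 CPM at week 30, against 0.813, 0.937 and 1.21 CPM at week 0, a log2 change of 10.67 (edgeR adjusted p = 3.8e-08). Trem2 had 627, 533, 480.4 and 634 CPM at week 30, against 20.2, 53.7 and 31.1 CPM at week 0, a log2 change of 4.02 (edgeR adjusted p = 5.9e-07). Both were far above week 0 in every week 30 library. Over the course, Gpnmb averaged 0.988 ± 0.205 CPM at week 0, 8.80 ± 2.58 at week 1, 23.0 ± 20.2 at week 4, 56.4 ± 29.8 at week 10, 1385 ± 497 at week 20 and 1603 ± 185 at week 30 (mean ± SD, n = 3, 2, 2, 3, 3 and 4). Trem2 averaged 35.0 ± 17.1, 61.0 ± 6.63, 86.0 ± 10.7, 65.2 ± 13.3, 347 ± 156 and 568 ± 74.4 CPM at the same weeks. Of the genes named for their difference between the livers, Adam8, Myo5a and Vsig8 rose by 5.87, 5.17 and 6.92 on the log2 scale (adjusted p = 4.5e-07, 3.5e-07 and 4.8e-05), and Ubd did not pass, at -0.22 (adjusted p = 0.873).

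In the Kupffer cells, where 15.5% of all genes rose and 15% fell, 18 of 22 lipid-associated macrophage genes rose and 0 fell at week 30. Log2 changes were 7.55 for Mmp12, 7.45 for Cd63 and 5.08 for Itgax (adjusted p = 1.1e-05, 6.1e-07 and 4.5e-05). Apoe, lower in high-collagen livers, rose in the Kupffer cells by 1.79 (adjusted p = 3.5e-05), and Plin2, which overlapped between the livers, by 2.15 (adjusted p = 8.5e-08). Of Kupffer identity genes 11 of 20 fell and 0 rose. The list holds Timd4 and Adgre1, whose proteins were used for the sort, and Timd4 is among the 11. Cd163 averaged 71.3 ± 49.9 CPM at week 30 and 1942 ± 153 CPM at week 0 (SD, n = 4 and 3, log2 change -4.77, edgeR adjusted p = 0.000262). Fcna fell with a log2 change of -2.75 (adjusted p = 1.2e-05), and Clec4f with -1.20 (adjusted p = 0.000161). Col1a1 was detected in this sort too, with 33.6, 19.1, 10.8 and 79.9 CPM at week 30, against 0.497, 0.117 and 0.289 CPM at week 0, and 15 of 27 matrix protein genes and 8 of 21 stellate markers rose. Of plasma protein genes, which hepatocytes express, 17 of 25 rose as well. Sinusoidal endothelial markers went the other way, with 10 of 14 falling and 1 rising. Other endothelial markers had 5 of 13 falling and 2 rising. The part of RNA from other cells in these values was not tested. Of the 665 genes at least 2-fold higher in every high-collagen liver, 637 were tested in Kupffer cells. Of these, 317 (49.8%) rose and 32 (5.02%) fell, beside 15.5% and 15% of all genes tested there. The 317 were 14.1% of all genes that rose there. Of the 44 lower genes, 38 were tested, 10 (26.3%) rose and 1 (2.63%) fell.

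**Figure D5:**
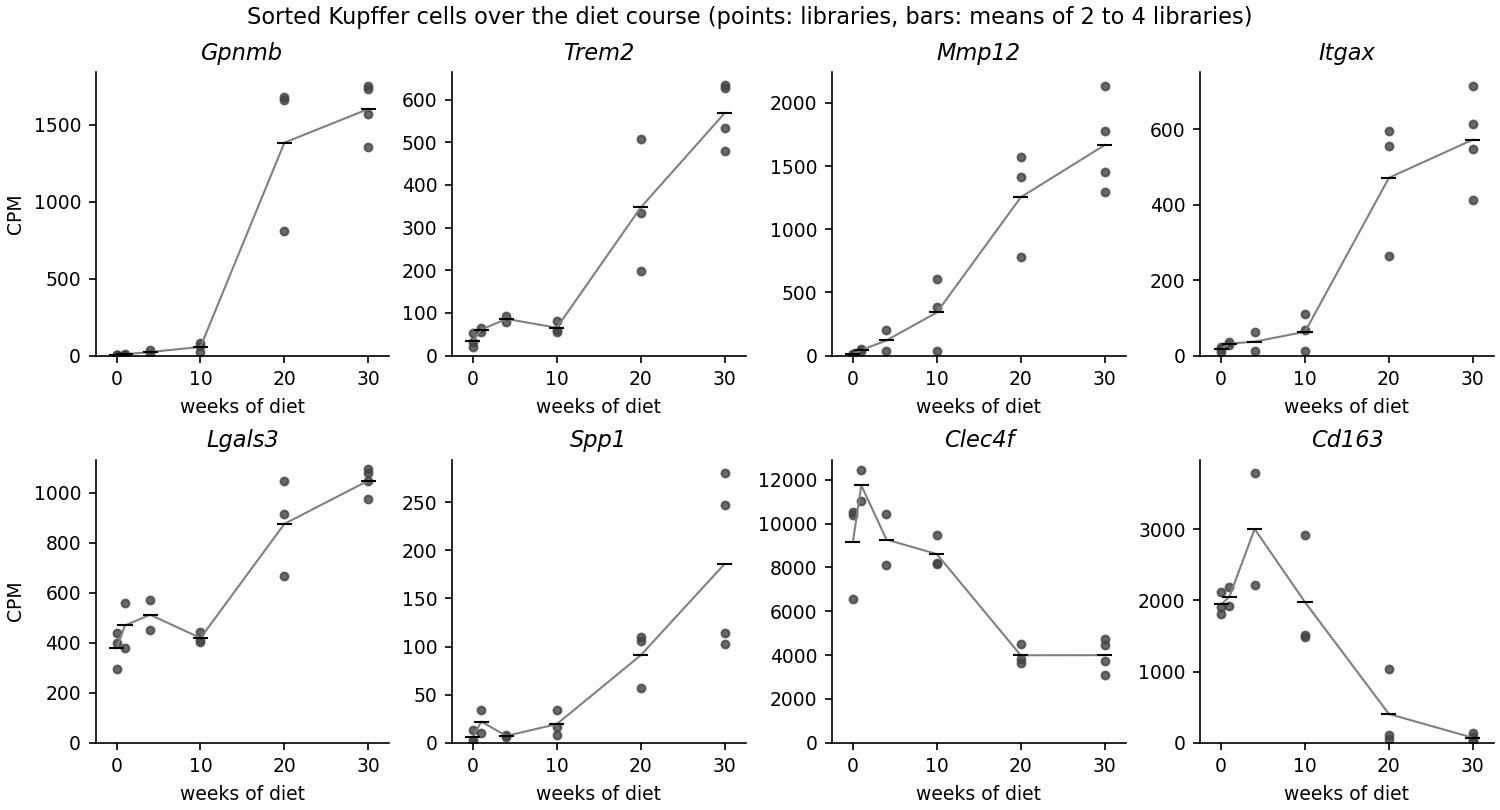
Level of 8 genes in sorted Kupffer cells, in CPM scaled with TMM, against weeks of diet from 0 to 30, where points are libraries and bars are means of 2 to 4 libraries joined by lines. Gpnmb lies between 1354 and 1755 CPM at week 30, against 0.813 to 1.21 CPM at week 0, and Clec4f and Cd163 are lower at weeks 20 and 30 than at week 0.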

How the data were processed

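RNA was sequenced from 22 whole livers and, for the diet course, from sorted Kupffer cells in 17 libraries. The authors deposited raw counts and TPM for 40458 transcripts, both made by HOMER's analyzeRepeats.pl from exon reads of mm10 RefSeq transcripts, per the file headers. STAR, HOMER, DESeq2, mm10 and GRCm38 stand in the submitters' processing notes without versions or roles, and the strand option, trimming and filters are not given in the sources used here, so reads of overlapping and antisense genes cannot be told apart.

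Each symbol was represented by its most counted transcript, giving 24941 genes, 7630 of them with several transcripts. Whole livers held 5389957 to 9941477 counts over these genes. Levels are CPM with TMM factors, and the deposited TPM served as an alternative with a pseudocount of 1. Between replicates of a group the chi-square per degree of freedom was 5.03 to 79.9 over 111 pairs, so no pair was a duplicate.

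Tests used edgeR 4.0.16 in R 4.3.3 on the deposited counts: filterByExpr (minimum count 10, minimum total 15), TMM, then glmQLFit and glmQLFTest. Tests were two-sided, and p-values were adjusted by Benjamini-Hochberg with a threshold of 0.05. The gradient in 18 livers left 15 residual degrees of freedom. The common biological coefficient of variation was 0.123 there, 0.193 in the label fit and 0.239 in the Kupffer cell fit. DESeq2 1.42.0 and limma 3.58.1 were alternatives, and correlations used scipy 1.17.1. On simulated counts edgeR recovered 46.4% of log2 slopes of 0.5 and 87.6% of slopes of 1 in the gradient (12640 genes), 63% and 89.9% of slope differences of 1 and 2 in the interaction (12632 genes), 60.2% and 88.9% of changes of 0.5 and 1 by label (12542 genes), and 59.6% and 77.8% of changes of 1 and 2 in Kupffer cells (14254 genes). For the gradient and the interaction the simulation took Col1a1 over the library total, 141 to 411 CPM in the high-collagen livers. The fits took Col1a1 scaled with TMM, 155 to 351 CPM, so recovery in these 2 fits is given for a wider range than the one tested and may be overstated.

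The members, the 33 gene lists (699 genes) and the tests were chosen with earlier results of these data known. Genes were named by rule: Col1a1, Trem2 and Gpnmb; the 12 with the largest difference each way among genes without overlap and with a higher median of 10 CPM or more; up to 4 per list by size, and members at odds with their list; the 10 called genes of each direction with the smallest p in the gradient; and the 8 most like Col1a1. For the Kupffer cells these genes and the macrophage lists were used. The other genes named were chosen after their values were seen. A few genes that the rule names are not reported here, while counts and medians of lists include them. Same-numbered replicates were not treated as pairs.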

Additional observations from a re-analysis of the deposited data

Results flagged for a closer look

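Of 31 groups of 4 to 10 libraries that were checked for a library far from the others, 2 held one. About 1 group in 20 would by chance if the groups were independent, but groups that share libraries are not, so no conclusion is drawn from the number. Both are hepatocyte genes in the sorted Kupffer cells at week 30, and both point to the same library. Cyp2c54, a P450 of hepatocytes, was at 1.17 CPM in replicate 2 and at 0.0485, 0.107 and 0 CPM in replicates 1, 3 and 4, against 0.316, 0 and 0.231 CPM at week 0. Cyp8b1, the sterol hydroxylase, was at 3.06 CPM in replicate 2 and at 0.776, 0.858 and 0.758 CPM in replicates 1, 3 and 4, against 1.17, 0.176 and 0.289 CPM at week 0. Of the 12 genes with the largest negative difference between the livers, each had its highest week 30 level in replicate 2. Several of these levels are near the floor. Among them, Serpina1e was at 5.20 CPM in replicate 2 and at 0.340, 3.76 and 0.433 CPM in replicates 1, 3 and 4. The levels of Cyp2c54 and Cyp8b1 are far below those of the whole livers, and the cause was not tested.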

How the results depend on the processing

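The gradient called 969 genes. The count was 2183 in limma on log2(TPM + 1), 2368 without the label as covariate, 6282 over all 22 livers, 6 without the 2 livers farthest from the median Col1a1, and 70 to 1386 with 1 liver left out, an alternative chosen after seeing the data. The count over all 22 livers takes in the difference between the sets that the rule made, so it is no test of the gradient. The genes that were higher in every high-collagen liver numbered 992 and the lower ones 524. Their numbers were 2299 and 61 over the library total, 2025 and 76 on TPM, 55 and 46 with a Col1a1 threshold of 200 CPM, 1993 and 1664 in DTR positive livers alone, 3253 and 2616 in DTR negative livers alone, and 1081 to 1451 and 643 to 769 with 1 low-collagen liver left out. The interaction called 0 genes, 45 in DESeq2 and 13 without the filter on low counts. The difference of Col1a1 by label, -0.03, was 0.0081 on log2(TPM + 1) and 0.30 in high-collagen livers only.

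Values that were not called also changed sign. In Kupffer cells, with 1 library left out, Ubd (-0.22) ran from -0.39 to 0.074 (above 0 without week 0 replicate 3 or week 30 replicate 3), Cyp2c54 (0.80) from -1.72 to 1.47 (below 0 without week 30 replicate 2), and Mup3 (-0.13) from -0.73 to 0.14 (above 0 without week 0 replicate 1 or week 30 replicates 1 or 4). By DTR label, Trem2 (0.12) was at -0.12 on TPM and -0.026 with Col1a1 as covariate, and Gpnmb (0.09) at -0.25 and -0.095. With replicate number as a block, Col1a1 (0.11) was at -0.17, Trem2 at -0.15 and Gpnmb at -0.29 by label, and Mup3 at 0.20. In the gradient the block raised the slope of Trem2 to 1.14 with an edgeR adjusted p of 0.0532, so that it was no longer called. The block gave 990 genes in the gradient, 0 by label and 3682 (against 4437) in Kupffer cells, where limma on log2(TPM + 1) gave 1149 rising and 4685 falling genes. Deviations of same-numbered libraries correlated at -0.401 to 0.788 between DTR positive and negative livers (2 of 10 pairs best with their own number) and at -0.0547 to 0.0797 between week 30 and week 0 (2 of 3). The value of 0.788 belongs to replicate 2, which is low-collagen under both labels. These values do not show that the numbers pair the samples, and they cannot exclude that same-numbered libraries share a batch. The causes were not tested. Of the named genes in the gradient, 587 values kept their direction and side of the threshold, 28 lost the call with their direction kept and 5, all of Gpnmb, gained it. Depth limits genes near 1 CPM, which at these depths rest on 5 to 10 counts.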
